A study of Homo sapiens with 6 samples.

Results

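The ion channel and ion pump genes that differed between the bladder cancer line T24 and its chemotherapy-resistant derivative are described here. They were taken by symbol, without use of their values, from the deposited table of genes that the study had called different between the lines: protein-coding genes of the potassium, sodium, calcium, chloride, TRP, ligand-gated, cyclic nucleotide and water channel families and of the P-type sodium, calcium and copper pumps. Of the 2462 genes in the table, 1924 of them protein coding, 36 met this rule, out of 313 protein-coding genes of the GENCODE annotation whose symbols do.

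T24 is an established human urinary bladder carcinoma line. The resistant cells, named T24DDP in the sample labels and T24-R here, were derived from T24 by repeated exposure to rising doses of cisplatin and gemcitabine with drug-free recovery between exposures. RNA-seq was done on 3 libraries of each. T24-R is a selected population from 1 parent line, the parental cells were not selected, and whether drug was in the medium at harvest is not given in the sources used here. The study's general statement is that experiments were repeated independently and that n counts biological replicates, but nothing ties the 3 libraries of a line to separate cultures, so the p-values are read as the spread between libraries only.

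Ion channels are membrane pores through which potassium, sodium, calcium or chloride flow down their gradients, and ion pumps spend ATP to build those gradients. Pore-forming subunits carry the current, while auxiliary subunits set how many channels reach the membrane and how they open. In epithelial and tumour cells, which do not fire action potentials, channels and pumps are best known for setting the resting potential, cell volume, intracellular calcium and the pH of intracellular compartments, and the copper pumps ATP7A and ATP7B are known for handling cisplatin.

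Values are scaled counts, that is, reads on a gene divided by a size factor that evens out library depth (0.939 to 1.08 across the 6 libraries). The listed genes held 1170731 to 1411926 reads per library. T24-R replicate 3 stood apart: over the 981 listed genes with a mean of at least 100, the SD of the log2 difference between T24-R replicates 1 and 2 was 0.160, and it was 0.532 and 0.516 between each of them and replicate 3 (0.248 to 0.313 between T24 libraries). Of 17 urothelial marker genes 3 were listed, of which KRT19 and PPARG fell and GATA3 rose in T24-R, and their summed scaled count was 1392 to 1583 in parental T24 and 399 to 478 in T24-R. The listed markers of other cell types were few and higher in T24-R, the direction in which 69.2% of all listed genes were called (below). Both listed markers of 9 for fibroblasts (COL1A1 and ACTA2, summed 55.4 to 83.2 in parental T24 and 222 to 299 in T24-R), the 1 listed of 9 for neurons (MAP2, 3.87 to 7.45 and 24.9 to 48.0) and the 1 listed of 4 for endothelium (PECAM1, 0 to 4.26 and 21.0 to 32.3) rose (ACTA2 not under TMM, a scaling that centres the listed genes near no change), while no marker of retina (8), muscle (6) or blood (4) was listed. The part of these shifts in the channel results was not tested, and in bulk RNA more cells of a type and more RNA per cell cannot be told apart.

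Channel and pump genes were mostly higher in T24-R. A gene was called where limma, fitted on log2(scaled count + 1) over all 2462 genes, gave a Benjamini-Hochberg adjusted p under 0.05 and a log2 fold change beyond 1 in size. Of the 36 genes, 33 were called higher and 3 lower, and none was left uncalled. Since the table had been selected on these same libraries, 98.3% of all its genes were called, 69.2% higher and 29.2% lower, and in 99.1% the values of the lines did not overlap, as in all 36 channel and pump genes. The adjusted p-values are therefore no independent evidence, and an exact permutation test of 3 against 3 libraries, two-sided, allows no p under 0.1 for a single gene. The 33 of 36 is 91.7%, and it includes genes almost without reads in T24, which could be listed only as higher.

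The median log2 fold change of the 36 genes was 2.40 (range -1.42 to 6.31), against 1.41 over all listed genes, and 27 of the 36 lay above that median. Many of these genes were barely detected in T24. In 12 of them (33.3%, against 13.2% of all listed genes) every T24 library held at most 3 reads, and the median of the T24 means was 9.40, against 31.6 over the table. The direction of these 12 genes was fixed by the selection of the table. With these genes set at the lowest fold that 3 reads per T24 library allow, the median of the 36 was 1.94. The median of all listed genes was not recomputed in this way, so 1.94 is not to be set against 1.41. With 10 added to each scaled count in place of 1, the difference between the medians of the 36 genes and of all listed genes shrank from 0.98 to 0.13. TMM assumes that most genes are unchanged, which a table selected for change does not meet, so its values show dependence on scaling only. Scaling by TMM factors lowered the median of all listed genes by 1.32 on the log2 scale. It left 18 of the 36 called higher and 3 lower, with a difference between the medians of 1.19. Of all 2462 listed genes it left 585 called higher and 721 lower.

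**Figure D1:**
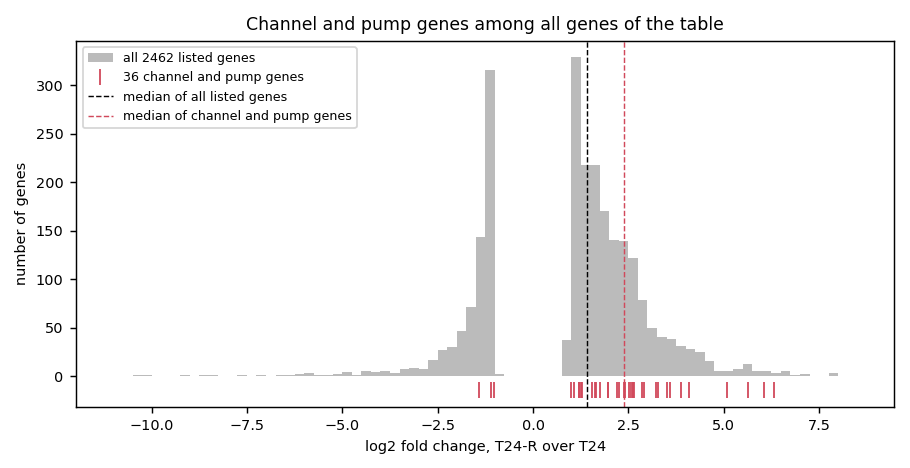
Histogram of the log2 fold change (T24-R over T24, x axis) of all 2462 listed genes, with the number of genes on the y axis and a red tick for each of the 36 channel and pump genes; dashed lines mark the medians, 1.41 for all listed genes and 2.40 for the 36. The gap around 0 shows that the table had been selected for change, and under TMM factors the median of all listed genes moves down by 1.32.

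Calls by class, here and below, are to be read beside all listed genes, of which 98.3% were called, 69.2% higher. Potassium channels were the largest class, with 13 genes, of which 12 were called higher and KCNQ3 lower (8 still called under TMM scaling, KCNQ3 among them, while KCNK6 changed sign). Their summed scaled count was 546 to 611 in parental T24 and 2766 to 3042 in T24-R. The median log2 fold change of the class was 2.42. KCNN4 (ENSG00000104783, GRCh38 chr19:43766533-43781261, minus strand), which encodes the intermediate-conductance calcium-activated potassium channel of non-excitable cells, had the highest level per length of the class in T24-R. Its scaled counts were 136, 114 and 91.9 in the T24 libraries and 1418, 1434 and 1075 in the T24-R libraries. Every T24-R library stood far above every T24 library, and replicate 3 was the lowest of its line. The means were 114 ± 22.2 and 1309 ± 203 (SD, n = 3 each), an 11.5-fold rise (log2 fold change 3.51, SE 0.18, limma adjusted p = 8.72e-07).

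KCNK5 (ENSG00000164626, chr6:39188973-39229450, minus strand) had the largest fitted change of the 36 genes. It encodes TASK2, a background potassium channel of the tandem pore family that opens in alkaline medium. The T24 libraries held 0, 1.02 and 0.968 scaled counts, and the T24-R libraries 123, 124 and 127, so the gene went from at most 1 read to a level that was nearly the same in the 3 T24-R libraries. Against the limit of 3 reads per T24 library, the T24-R mean of 125 ± 2.39 (SD, n = 3) was at least 40.8-fold higher (log2 fold change 6.31, SE 0.34, limma adjusted p = 1.28e-06).

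The promoters of KCNN4 and KCNK5 are shown because these genes had the highest level and the largest rise of the class. The sequences are the 250 bases before the RefSeq start site (GRCh38.p14, read 5′ to 3′ on the gene's strand), chr19:43780974-43781223 and chr6:39229476-39229725, and capitals mark the GC box GGGCGG on either strand (CCGCCC where it lies on the other strand).
KCNN4: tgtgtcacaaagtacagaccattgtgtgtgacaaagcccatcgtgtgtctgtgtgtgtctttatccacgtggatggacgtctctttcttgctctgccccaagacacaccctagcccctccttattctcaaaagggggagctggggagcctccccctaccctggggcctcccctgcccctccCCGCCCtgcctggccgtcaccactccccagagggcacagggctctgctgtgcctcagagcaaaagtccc
KCNK5: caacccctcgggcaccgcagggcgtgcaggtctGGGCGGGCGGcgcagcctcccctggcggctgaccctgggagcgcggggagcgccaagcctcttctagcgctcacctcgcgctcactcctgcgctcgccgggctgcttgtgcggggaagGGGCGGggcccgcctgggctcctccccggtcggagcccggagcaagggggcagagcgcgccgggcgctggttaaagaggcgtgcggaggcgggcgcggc
The KCNN4 window holds 5 CpG dinucleotides and 1 GC box, and the KCNK5 window 31 CpG and 3 GC boxes, of which a pair overlaps. Both are promoters of genes that rose, and they differ in CpG content. Which start site these cells use was not measured.

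KCNS3 (ENSG00000170745, chr2:17877847-18361616, plus strand) encodes an electrically silent subunit that forms no current alone and modifies the delayed rectifier channels it joins. It held 18.1, 23.5 and 15.5 scaled counts in parental T24 and 175, 158 and 227 in T24-R. The lines were well apart, with means of 19.0 ± 4.08 and 187 ± 36.1 (SD, n = 3 each), a 9.81-fold rise (log2 fold change 3.23, SE 0.23, limma adjusted p = 4.26e-06). KCNF1, another silent subunit, was near its detection limit, with 0, 0 and 1 reads in parental T24 and 10, 6 and 6 in T24-R (at least 2.34-fold higher).

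The other tandem pore genes were already expressed in T24. KCNK3, which encodes the acid-sensitive background channel TASK1, went from 119, 139 and 119 scaled counts to 408, 468 and 622 (3.97-fold). KCNK6, which encodes TWIK2, went from 227, 241 and 226 to 418, 482 and 748 (2.37-fold). Both were highest in T24-R replicate 3. Under TMM scaling the KCNK3 log2 fold change of 1.96 was 0.62, no longer called. The KCNK6 log2 fold change of 1.20 was 0.95, no longer called, without that library, and -0.15 under TMM scaling.

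The inward rectifiers, channels that pass potassium best near the resting potential, were low in both lines. KCNJ12 rose 6.68-fold, from 13.8, 6.13 and 8.71 scaled counts to 45.9, 54.5 and 91.1, and 17.4% of its 50-base stretches also occur in other transcripts, KCNJ18 among them, so its reads are uncertain. KCNJ10 went from 1, 0 and 0 reads to 6, 9 and 11. KCNJ11, which encodes the pore of the ATP-sensitive channel, went from 0, 3 and 2 reads to 5, 14 and 13, which makes rises of at least 2.74-fold and 3.35-fold. KCNMB4, an auxiliary subunit of the large-conductance calcium-activated channel, rose 5.15-fold from 26.6, 11.2 and 16.5 scaled counts to 93.8, 103 and 82.3. The ether-à-go-go family genes KCNH8 (5, 0 and 1 reads in T24, 14, 9 and 13 in T24-R) and KCNH1 (2, 4 and 2 against 12, 11 and 12) were called on few reads, and 44.7% of the 50-base stretches of KCNH1 are shared with other transcripts, which leaves its value uncertain.

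KCNQ3, a subunit of the M-current channel of neurons, was the potassium channel gene that fell. Its scaled counts were 61.7, 56.2 and 61.0 in parental T24 and 37.9, 34.2 and 15.7 in T24-R, a mean 2.04-fold lower. T24-R replicate 3 was much the lowest, and without it the log2 fold change went from -1.09 to -0.71 and the gene was not called.

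**Figure D2:**
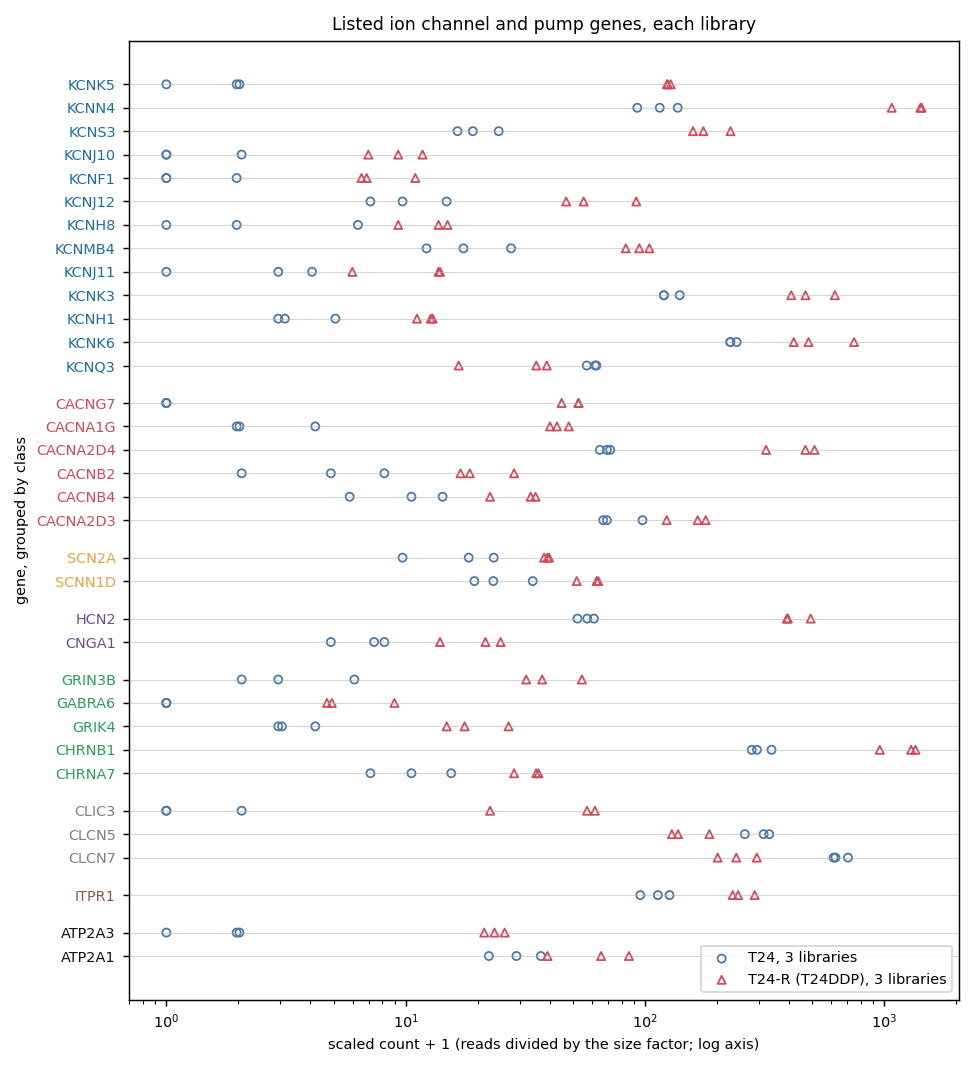
Scaled count + 1 (x axis, log scale) of 34 of the 36 genes (y axis, label colours and gaps set the classes apart) in the 3 T24 libraries (circles) and the 3 T24-R libraries (triangles). The marks of the lines do not overlap for any gene, which holds for 99.1% of all listed genes. Several genes sit at or near 0 in T24, and CLCN7, CLCN5 and KCNQ3 are the genes with T24-R to the left.

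Voltage-gated calcium channels were represented by 6 genes, and 5 of them encode auxiliary subunits. All 6 were called higher, as were 69.2% of all listed genes (3 of the 6 under TMM scaling, where CACNA2D3 changed sign). Their summed scaled count was 144 to 177 in parental T24 and 583 to 825 in T24-R. CACNA1G, which encodes the pore of a low-voltage-activated T-type channel, was the pore gene of the class, with 3.19, 1.02 and 0.968 scaled counts in parental T24 and 41.9, 47.1 and 39.2 in T24-R. The 3 T24-R libraries were close to one another, and the rise was at least 14.0-fold. T24 gave no read of CACNG7, a gamma subunit, and T24-R held 43.9, 51.7 and 51.9 scaled counts (at least 16.1-fold higher).

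The alpha2delta subunits help calcium channels to reach the plasma membrane. CACNA2D4 (ENSG00000151062, chr12:1791957-1918836, minus strand) held 63.9, 68.4 and 70.7 scaled counts in parental T24 and 468, 511 and 320 in T24-R. The T24 libraries were tight and T24-R replicate 3 was the lowest of its line, yet all 3 lay far above T24. The means were 67.7 ± 3.46 and 433 ± 99.99 (SD, n = 3 each), a 6.40-fold rise (log2 fold change 2.63, SE 0.19, limma adjusted p = 4.37e-06).

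CACNA2D3 (ENSG00000157445, chr3:54122547-55074557, plus strand) changed much less, from 66.0, 68.4 and 96.8 scaled counts to 179, 165 and 122. T24 replicate 3 and T24-R replicate 3 came near each other, and the means were 77.1 ± 17.1 and 155 ± 29.4 (SD, n = 3 each), 2.02-fold (log2 fold change 1.01, SE 0.21, limma adjusted p = 1.65e-03). The call was lost without T24 replicate 1 or 2 or T24-R replicate 1 or 2 (0.90 to 0.95), and TMM scaling turned the value to -0.33. Of the beta subunits, which bind the pore subunit inside the cell, CACNB2 rose 5.04-fold and CACNB4 3.17-fold, both at low level, and both calls were lost under TMM scaling (log2 fold changes of 1.11 and 0.37). CACNB2 had 1.06, 7.15 and 3.87 scaled counts in parental T24 and 16.0, 17.5 and 27.4 in T24-R. CACNB4 had 9.58, 13.3 and 4.84 in parental T24 and 33.9, 32.3 and 21.5 in T24-R.

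Both sodium channel genes in the table were called higher, by little, and neither was called under TMM scaling, where both values were just below 0. SCNN1D (ENSG00000162572, chr1:1280436-1292029, plus strand), the delta subunit of the epithelial sodium channel, had 33.0, 18.4 and 22.3 scaled counts in parental T24 and 62.9, 61.9 and 50.9 in T24-R. The T24-R values were the closer together, and the means of 24.5 ± 7.57 and 58.6 ± 6.63 (SD, n = 3 each) differed 2.39-fold (log2 fold change 1.26, SE 0.26, limma adjusted p = 1.55e-03, TMM -0.06). SCN2A, a pore subunit of neuronal voltage-gated sodium channels, had 22.4, 17.4 and 8.71 scaled counts in parental T24 and 36.9, 38.8 and 38.2 in T24-R. Its log2 fold change of 1.28 was 0.91 without T24 replicate 3, the lowest library, and -0.02 under TMM scaling.

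The cyclic nucleotide channel class had HCN2 and CNGA1, both called higher (HCN2 alone under TMM scaling). HCN2 (ENSG00000099822, chr19:589893-617159, plus strand) encodes a pacemaker channel that opens on hyperpolarisation and is tuned by cyclic AMP. The T24 libraries held 56.4, 60.3 and 51.3 scaled counts and the T24-R libraries 395, 392 and 493. Neither line varied much, with means of 56.0 ± 4.50 and 426 ± 57.3 (SD, n = 3 each), a 7.62-fold rise (log2 fold change 2.90, SE 0.15, limma adjusted p = 1.01e-06). Of its 50-base stretches 14.4% also occur in other transcripts. CNGA1, which encodes a subunit of the channel of rod photoreceptors, had 6.39, 7.15 and 3.87 scaled counts in parental T24 and 23.9, 12.9 and 20.6 in T24-R.

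The promoter of HCN2 (250 bases before the RefSeq start, GRCh38.p14, chr19:589631-589880, plus strand) is shown as the richest in GC boxes of those printed, with 7 matches in capitals and 39 CpG dinucleotides.
HCN2: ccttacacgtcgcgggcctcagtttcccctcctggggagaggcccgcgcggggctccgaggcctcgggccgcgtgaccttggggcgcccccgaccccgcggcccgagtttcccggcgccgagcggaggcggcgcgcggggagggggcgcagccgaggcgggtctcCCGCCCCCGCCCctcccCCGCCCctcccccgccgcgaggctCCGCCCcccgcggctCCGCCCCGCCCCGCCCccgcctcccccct
All 7 matches lie on the other strand, within 85 bases of the start, and a few overlap.

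Ligand-gated channels numbered 6, all called higher (4 under TMM scaling), with a median log2 fold change of 2.54. CHRNB1 (ENSG00000170175, chr17:7445061-7457707, plus strand), the beta subunit of the muscle-type nicotinic acetylcholine receptor, had the highest level per length of the class. It held 337, 293 and 279 scaled counts in parental T24 and 1296, 1351 and 959 in T24-R. T24-R replicate 3 was again the lowest of its line and still far above T24, and the means were 303 ± 30.6 and 1202 ± 213 (SD, n = 3 each), a 3.97-fold rise (log2 fold change 1.97, SE 0.15, limma adjusted p = 7.15e-06). Under TMM scaling the log2 fold change was 0.62 and the call was lost. Of its exonic bases 14.5% overlap another gene on the same strand, so some of its reads may belong to that gene.

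GABRA6, an alpha subunit gene of the GABA type A receptor, the main inhibitory receptor of the brain, had no read in parental T24 and 8, 4 and 4 reads in T24-R, at least 1.70-fold higher, the lowest of these bounds.

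Of the glutamate receptor genes, GRIN3B, an NMDA receptor subunit, rose 14.9-fold, from 1.06, 5.11 and 1.94 scaled counts to 30.9, 53.6 and 36.2. GRIK4, a kainate receptor subunit, went from 3.19, 2.04 and 1.94 to 25.9, 13.9 and 16.6 (at least 6.16-fold). CHRNA7, the subunit of the homomeric neuronal nicotinic receptor, rose 3.19-fold from 9.58, 6.13 and 14.5 to 34.9, 34.2 and 27.4. None of these 3 genes overlapped between lines, which holds for 99.1% of all listed genes. CHRNA7 shares 12.7% of its 50-base stretches with other transcripts, CHRFAM7A, its partial copy, among them.

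The chloride class held 3 genes and was the one whose summed scaled count fell, from between 876 and 1018 to between 390 and 499. CLCN7 (ENSG00000103249, chr16:1444934-1475580, minus strand) encodes the chloride/proton exchanger of lysosomes. It had 614, 625 and 706 scaled counts in parental T24 and 201, 240 and 293 in T24-R. The lowest T24 library was above all T24-R libraries, and the means were 648 ± 49.9 and 245 ± 46.3 (SD, n = 3 each), 2.65-fold lower in T24-R (log2 fold change -1.42, SE 0.15, limma adjusted p = 3.80e-05). Of its exonic bases 15.7% overlap genes on the other strand.

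CLCN5 (ENSG00000171365, chrX:49922615-50099235, plus strand), the related exchanger of endosomes, fell from 261, 330 and 313 scaled counts to 129, 137 and 185. The means were 301 ± 36.0 and 150 ± 30.5 (SD, n = 3 each), 2.01-fold lower (log2 fold change -1.01, SE 0.17, limma adjusted p = 5.04e-04). It lay at the edge of the call, which was lost without T24 replicate 2 or 3 or T24-R replicate 1 or 2 (-0.98 to -0.91). The direction was the same in every fit, and both exchangers were lower still under TMM scaling. CLIC3, whose family is named for chloride channels but whose soluble form is a glutathione-dependent enzyme, rose from 1.06, 0 and 0 scaled counts to 60.9, 56.3 and 21.5 (at least 15.1-fold). T24-R replicate 3 held 0.368 of the mean of the other T24-R libraries, the lowest such ratio of the 36 genes.

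The CLCN7 promoter is shown as that of the gene of the 36 with the highest level per length in T24 and the strongest fall (250 bases before the RefSeq start, GRCh38.p14, chr16:1475029-1475278, minus strand). Capitals mark GC boxes and the E-box TCACGTG, the form bound by regulators of lysosomal genes, a motif searched after this sequence had been seen.
CLCN7: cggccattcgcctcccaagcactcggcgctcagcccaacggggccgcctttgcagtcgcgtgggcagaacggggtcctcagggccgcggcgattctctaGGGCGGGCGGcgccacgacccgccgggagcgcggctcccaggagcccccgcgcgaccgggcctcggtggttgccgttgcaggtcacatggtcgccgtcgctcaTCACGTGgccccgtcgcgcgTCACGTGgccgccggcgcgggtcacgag
The window holds 40 CpG dinucleotides, 2 overlapping GC boxes and 2 copies of TCACGTG, which begin 48 and 28 bases before the start.

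ITPR1 (ENSG00000150995, chr3:4493345-4847840, plus strand), the inositol trisphosphate receptor that releases calcium from the endoplasmic reticulum, was the one intracellular release channel listed. Its scaled counts were 94.7, 112 and 126 in parental T24 and 244, 232 and 287 in T24-R. The lines were apart in every library, with means of 111 ± 15.6 and 254 ± 28.9 (SD, n = 3 each), 2.29-fold higher in T24-R (log2 fold change 1.19, SE 0.16, limma adjusted p = 1.14e-04), a value that TMM scaling turned to -0.15.

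All 3 ion pump genes listed were called higher, and 2 under TMM scaling, where ATP2A1 changed sign. ATP2A3 (ENSG00000074370, chr17:3923870-3964464, minus strand) encodes SERCA3, a pump that returns calcium to the endoplasmic reticulum. It had 0, 1.02 and 0.968 scaled counts in parental T24 and 24.9, 20.3 and 22.5 in T24-R. From at most 1 read in T24 it reached a mean of 22.6 ± 2.31 (SD, n = 3), at least 7.40-fold higher (log2 fold change 3.89, SE 0.36, limma adjusted p = 1.55e-05).

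ATP2A1 (ENSG00000196296, chr16:28878405-28904509, plus strand), which encodes the fast muscle form SERCA1, had 21.3, 35.8 and 28.1 scaled counts in parental T24 and 84.8, 64.7 and 38.2 in T24-R. T24-R replicate 3 came close to the highest T24 library, and the means were 28.4 ± 7.24 and 62.6 ± 23.4 (SD, n = 3 each; log2 fold change 1.07, SE 0.33, limma adjusted p = 0.0112). The call was lost without T24 replicate 1 (0.89) or T24-R replicate 1 (0.82). TMM scaling gave -0.25, the only fit with a value below 0, so the sign of ATP2A1 depends on the scaling. Of its exonic bases 22.6% overlap genes on the other strand, ATP2A1-AS1 among them, so its value is uncertain.

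**Figure D3:**
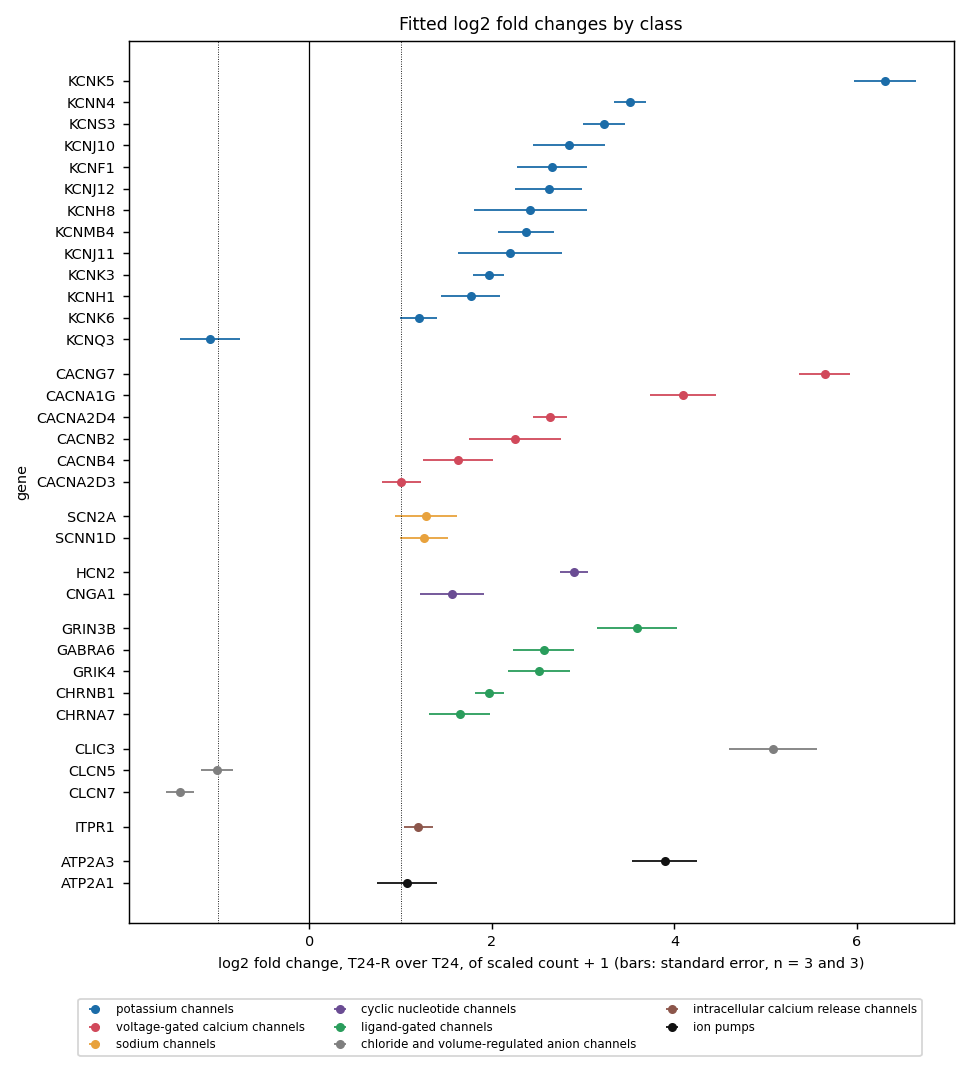
Log2 fold change (T24-R over T24 on scaled count + 1, x axis) of 34 of the 36 genes (y axis) with standard errors as bars, coloured by class; dotted lines mark 1 and -1. The 3 genes left of 0 are CLCN7 (-1.42), KCNQ3 (-1.09) and CLCN5 (-1.01), and under TMM scaling KCNK6, CACNA2D3, SCN2A, SCNN1D, ITPR1 and ATP2A1, all near 1 here, move below 0.

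Levels were compared between genes as mean scaled count per kb of the exonic length in the table. In T24 the highest of the 36 were CLCN7 (79.9 per kb), CHRNB1 (70.0), KCNK6 (37.5) and KCNN4 (33.5). In T24-R KCNN4 was the first (384 per kb), CHRNB1 the second (278) and HCN2, the eighth in T24 (16.4 per kb), the third (125), while CLCN7 stood the eleventh (30.1). KCNK5, with the largest fitted change, stood the tenth in T24-R at 33.2 per kb, and CLIC3 the eighth at 39.3. A mean of at least 100 scaled counts was reached by 7 of the 36 genes in T24 and by 12 in T24-R.

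**Figure D4:**
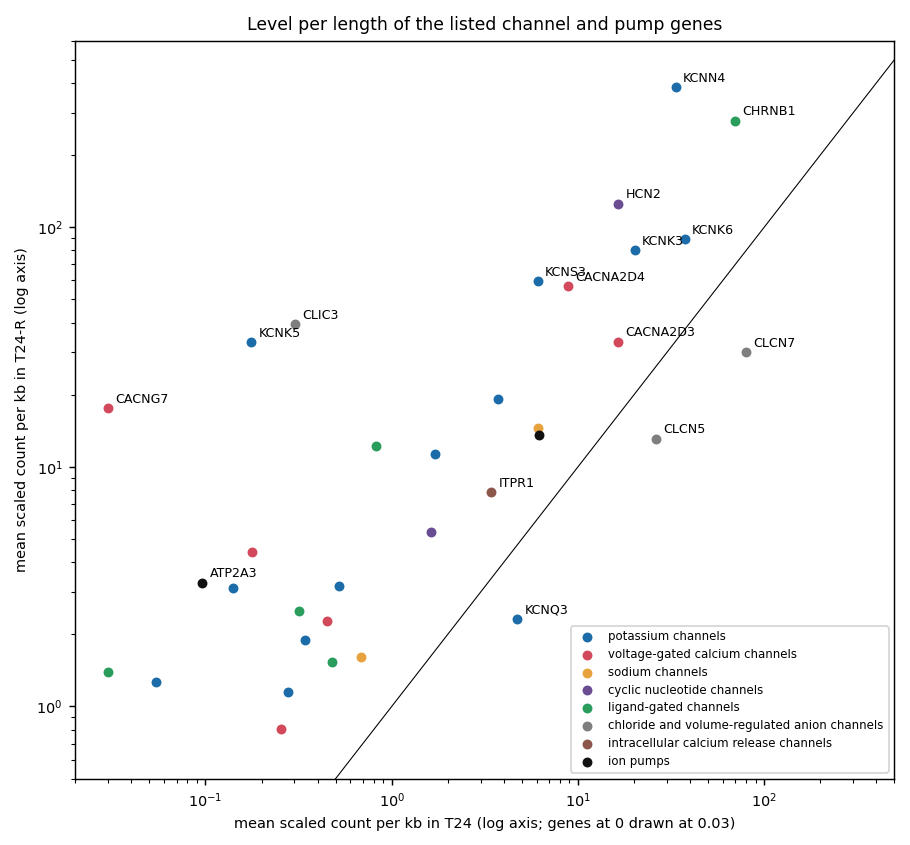
Mean scaled count per kb in T24 (x axis) against T24-R (y axis) for 34 of the 36 genes, coloured by class, both axes logarithmic, with the line of equal level and genes at 0 in T24 drawn at the left edge. CLCN7, CLCN5 and KCNQ3 lie under the line, KCNN4 has the highest T24-R level (384 per kb), and TMM scaling would lower all T24-R values relative to T24.

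The classes were listed unevenly. Annotated genes were counted by the start of their symbol alone, so these totals can include genes whose proteins are not channels or pumps. Potassium channels had 13 of 96 annotated genes in the table, voltage-gated calcium channels 6 of 26, ligand-gated channels 6 of 60, ion pumps 3 of 17, chloride and volume-regulated anion channels 3 of 31, cyclic nucleotide channels 2 of 10, sodium channels 2 of 23 and intracellular release channels 1 of 11. None of the 25 genes with TRP or mechanosensitive channel symbols and none of the 14 with water channel symbols was listed. The copper pumps ATP7A and ATP7B and the LRRC8 genes of the volume-regulated anion channel, families known for platinum transport, were not listed either. A gene that is not listed was not analysed here, and its absence does not show equal expression.

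Of 99 genes that work beside these families (transporters, regulators and channels whose symbols fall outside the rule), 6 were listed, 5 called higher and 1 lower (2 and 1 under TMM scaling, where SGK1 and HVCN1 were among those that turned negative). Among all listed genes 69.2% were called higher and 29.2% lower. TPCN1, which encodes a calcium and sodium channel of endosomes and lysosomes, rose from 499, 571 and 572 scaled counts to 3514, 3621 and 4299 (log2 fold change 2.79, SE 0.12, limma adjusted p = 4.48e-07). TMEM63C, of a mechanosensitive family, went from 0 in all T24 libraries to 13.0, 21.2 and 25.5. SGK1, a kinase that raises the number of channels at the membrane, rose from 325, 359 and 308 to 836, 868 and 602 (log2 fold change 1.20, TMM -0.15).

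HVCN1, the voltage-gated proton channel, went from 11.7, 17.4 and 12.6 scaled counts to 28.9, 28.6 and 41.1 (log2 fold change 1.19, TMM -0.10). MCOLN2, a mucolipin channel of endosomes and lysosomes, was the gene that fell, from 170, 195 and 178 to 80.8, 103 and 81.3 (-1.03). Leaving out T24 replicate 2, or either replicate 1 or replicate 3 of T24-R, ended its call.

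By position, 6 of the 36 genes (16.7%) lay on chromosome 19, which held 7.80% of all listed genes. Among these were KCNN4, HCN2, CACNG7, GRIN3B and KCNK6, and all 6 were called higher (KCNK6 below 0 under TMM scaling). Chromosome 2 held 5 (13.9%, against 5.44%) and chromosome 17 held 4 (11.1%, against 6.99%), all of them called higher. Under TMM scaling KCNK3, CACNB4 and SCN2A on chromosome 2 and CHRNB1 on chromosome 17 lost their call, SCN2A with a value below 0. These calls are to be read beside the 69.2% of all listed genes called higher, a share that was not computed by chromosome. The distance between neighbours was not examined, and DNA copy number was not measured in this series.

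The set of RefSeq promoter windows used here had 40 windows for 25 of the 36 genes, and the remaining genes were not searched. The CpG count of the 40 windows ran from 1 to 44 with a median of 20.5, against a median of 11 over all 35116 windows. Their median GC content was 64.4%, against 58%. The GC box GGGCGG, searched on both strands, occurred in 24 of the 40 windows (60%), from 20 genes, and in 42.6% of all windows. TCACGTG, on both strands, was found in 4 of the 40 (10%) and in 3.31% of all windows. It was searched after the CLCN7 promoter had been seen, and CLCN7 is counted, so these shares are no independent comparison. The 4 windows belong to CLCN7, CLCN5 and CHRNA7, of which the former 2 fell and CHRNA7 was called higher. TATAAA, on the gene's strand, was found in 2 of the 40 windows, those of CLCN5 and SCN2A, and in 6.80% of all. The windows of 1 gene can overlap, and a match describes the letters of the window only.

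Across libraries, T24-R replicate 3 was above the other T24-R libraries in 13 of the 36 genes, below both in 13 and between them in 10. Among those with the highest level it was below in KCNN4 and CHRNB1 and above in HCN2, KCNK3 and KCNK6. Its ratio to the mean of the others ran from 0.368 (CLIC3) to 1.81 (KCNJ12). Over all listed genes it was above the others in 910, below in 1092 and between in 460. Without this library 34 of the 36 genes kept their call, the exceptions being KCNK6 and KCNQ3, while 2199 of all 2462 listed genes were called, against 2421 with it. Leaving out each library in turn, 30 genes kept their call throughout, and ATP2A1, CACNA2D3, CLCN5, KCNK6, KCNQ3 and SCN2A lost it at least once. These fits called 2199 to 2366 of all 2462 listed genes. The share of all listed genes that kept their call throughout was not computed, so the 30 have no matching background.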

How the data were processed

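RNA-seq of T24 and T24-R cells (3 libraries each) was deposited as 1 table, in which each value is a signal: the count of reads on a gene divided by the library's DESeq2 size factor by the authors. Reads had been aligned and counted by the authors on a human GRCh38 annotation; the labels' protocol also names retinas and another genome build, which the human gene identifiers of the table do not match. The authors' group means, fold changes and p-values, on which the table had been selected, were not used. Whole reads were recovered from 100% of the values (tolerance 0.001 of a read). Samples were grouped by their labels. The limma test (version 3.58.1, R 4.3.3, trended variance) was run on log2(value + 1), pseudocount 1, over all 2462 genes, without covariates and with Benjamini-Hochberg adjustment. It was tested on simulated data. On the recovered reads, edgeR 4.0.16 called 2460 genes and DESeq2 1.42.0 called 2461 at the same thresholds. A gene with at most 3 reads in every T24 library was given a lower bound on its fold, computed against 3 reads per library. Such a bound divides the observed T24-R mean by that limit, with no interval for counting error, so it is not a confidence limit. It does not cover the spread between libraries or cultures either.

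Genes were named with their tests by 1 rule: in each class, the 3 with the largest change among those with a mean of at least 50 in the higher line, and every pump. Others are given by their values, and a few genes that count in the totals are not reported here by name. Members, marker lists and tests were chosen with earlier results of these data known. Overlaps with other genes and shared 50-base stretches were computed on GENCODE gene models. Alternatives were other scalings (TMM), pseudocounts of 0.1 and 10, a filter on low values, no variance trend, limma's treat, a replicate block, both count tools and leaving out each library.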

Additional observations from a re-analysis of the deposited data

How the results depend on the processing

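The 33 genes higher and 3 lower were also called by edgeR, by DESeq2, without the variance trend and with 0.1 added. Under TMM factors 18 genes were called higher, 15 calls were lost, and 6 values turned negative: ATP2A1 (-0.25), CACNA2D3 (-0.33), ITPR1 (-0.15), KCNK6 (-0.15), SCN2A (-0.019) and SCNN1D (-0.061). CACNB2, CACNB4, CHRNA7, CHRNB1, CNGA1, KCNH1, KCNH8, KCNJ11 and KCNK3 lost their call and kept their sign. Over all listed genes TMM gave 585 higher and 721 lower against 1703 and 718. Calls by class were then 8 for potassium, 3 for calcium, 1 for cyclic nucleotide, 0 for sodium and 0 for intracellular release channels, and 2 of the genes beside these families were called higher. The median log2 fold change was 1.28 under TMM, 1.12 with 10 added, and 2.33 to 2.53 leaving out each library in turn. With 10 added 23 genes were called higher and 1 lower, with potassium at 7, sodium at 1 and cyclic nucleotide channels at 1, and no gene beside these families was called lower (0). limma's treat against a log2 fold change of 1 gave 23 higher and 1 lower, with sodium at 0, cyclic nucleotide at 1 and intracellular release channels at 0, and 2 higher and 0 lower beside these families. With 10 added and under treat, 1771 and 1298 of all listed genes were called, against 2421. Of 29 genes with a mean of at least 10 all kept their call, 26 of them higher and 8 of them potassium channels, as 2053 of all 2094 genes so filtered were called, 1402 of them higher. Leaving out each library in turn gave 31 to 32 higher and 2 to 3 lower, 1 to 2 sodium channels, 4 to 5 higher and 0 to 1 lower beside these families. Such fits called 2199 to 2366 of all 2462 listed genes. The causes were not tested.

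The replicate block changed no call of the 36 genes (33 higher, 3 lower). Deviations of libraries with the same number correlated at 0.124, 0.024 and 0.181 over 2094 genes, so the shared numbers do not show pairing, although each T24 library correlated best with its own number. Genes with under 10 scaled counts in T24 rest on few reads, and their fold changes move most with the value added.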
